A study of Mus musculus with 6 samples.

Results

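A set of 10 genes of the endothelium, the cell layer that lines blood vessels, were examined in the RNA of 6 whole mouse kidneys. They were listed by name as general, glomerular and fenestrated endothelial genes, and every transcript carrying one of these symbols was taken. All 10 genes were found, with 26 of the 54721 transcripts of the deposited table, out of 23276 gene symbols. Of these transcripts, 14 had a RefSeq mRNA identifier and 12 had been assembled from the reads.

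The kidneys came from mice of postnatal day 22. In 3 of them KspCre acted on a *Pkd1* F/RC genotype (*Pkd1* F/RC SKO), in which one allele of *Pkd1* carries the hypomorphic RC mutation and the other is flanked by loxP sites. In the other 3 the miR17~92 F/F genotype was added (*Pkd1* F/RC DKO), so that the miR-17~92 cluster was also to be removed. Ksp/Cre is active in renal tubules, and all 6 mice carried it together with the RC mutation in every cell. Endothelial cells are therefore not the cells in which the loxP-flanked alleles were to be recombined. The study compared DKO with SKO kidneys to learn which mRNAs follow the loss of the cluster. The table holds 1 mean per transcript over the 6 kidneys and the authors' own comparison, which was not used here. The values below thus describe the kidneys of both genotypes together, with no replicate spread and no test, and how the genes differ between SKO and DKO kidneys was not analysed here.

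Endothelial cells of the kidney differ by vessel bed. Those of the glomerulus and of the peritubular capillaries are fenestrated, that is, pierced by small pores, and they depend on VEGF-A made by neighbouring epithelial cells. VEGF acts through receptors encoded by *Kdr* and *Flt1*, angiopoietins act through the receptor encoded by *Tek*, and BMP9 acts through a complex that contains endoglin, the product of *Eng*. *Pecam1* and *Cdh5* encode adhesion proteins of the junctions between endothelial cells.

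The miRNAs that the study removed from tubules act by pairing of their seed, bases 2 to 8, with 3'-UTRs. They are shown because the same miRNAs can be present in endothelial cells, where Ksp/Cre is not expected to act. Mature sequences are from RefSeq (GRCm38.p6, chromosome 14, forward strand, within 115043684 to 115044496) and the seed is in capitals. miR-17 and miR-20a share one seed, and miR-19a and miR-19b share another.
miR-17-5p: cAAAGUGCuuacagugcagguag
miR-18a-5p: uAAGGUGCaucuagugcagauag
miR-19a-3p: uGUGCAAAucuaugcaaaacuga
miR-20a-5p: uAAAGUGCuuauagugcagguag
miR-19b-3p: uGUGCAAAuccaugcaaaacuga
miR-92a-3p: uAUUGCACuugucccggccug

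Of the 10 genes, 3 had a match of 7 bases to one of these 4 seeds in the 3'-UTR of the RefSeq transcript with the highest mean, with 4 matches in all. Of the 18968 3'-UTRs searched, 26.5% held a match to at least one of the seeds. The 3'-UTRs of the endothelial genes had a median length of 1227 nucleotides, against 791 over all genes, and a longer sequence holds more matches by its length alone. *Flt1* and *Ehd3* held the match to miR-17 and miR-20a, GCACTTT, which was present in 11.04% of all 3'-UTRs. *Flt1* also held the match to miR-92a, GTGCAAT, found in 6.005% of all 3'-UTRs. *Pecam1* held the match to miR-18a, GCACCTT, found in 7.24%. No member held the match to miR-19a and miR-19b, TTTGCAC, which 10.1% of 3'-UTRs had. The 4 sites are given on the strand of the transcript with the match in capitals. They lie in the last exon of their genes on mm10, at chr5:147563071-147563099 and chr5:147562613-147562641 (*Flt1*, reverse strand), chr11:106654518-106654546 (*Pecam1*, reverse strand) and chr17:73831228-73831256 (*Ehd3*, forward strand). A match describes letters in the annotated sequence and not a site that was shown to be used.
Flt1, miR-17 and miR-20a: atatttattaaGCACTTTatgctccttgg
Flt1, miR-92a: ctggaggcccaGTGCAATccccactgaga
Pecam1, miR-18a: gcacttaaagcGCACCTTgatcttccttt
Ehd3, miR-17 and miR-20a: agcagggttagGCACTTTctatgtattag

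By read counts not corrected for length, all 10 genes lay above the median gene. The median of the members, each taken at its highest transcript, was 39.3 CPM (read counts scaled to a common library size, given as a mean over the 6 kidneys) against 2.36 CPM over all gene symbols and 12.6 CPM over the 13001 symbols of at least 1 CPM. The members ran from 23.3 CPM for *Tie1* to 69.9 CPM for *Plvap*, or from 4.54 to 6.13 on the log2 scale. In the ranking of all gene symbols by CPM they held percentiles from 82.7 to 95.5, with a median of 90.1. In RNA of a whole organ, fewer cells of a type and less RNA per cell cannot be told apart.

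**Figure D1:**
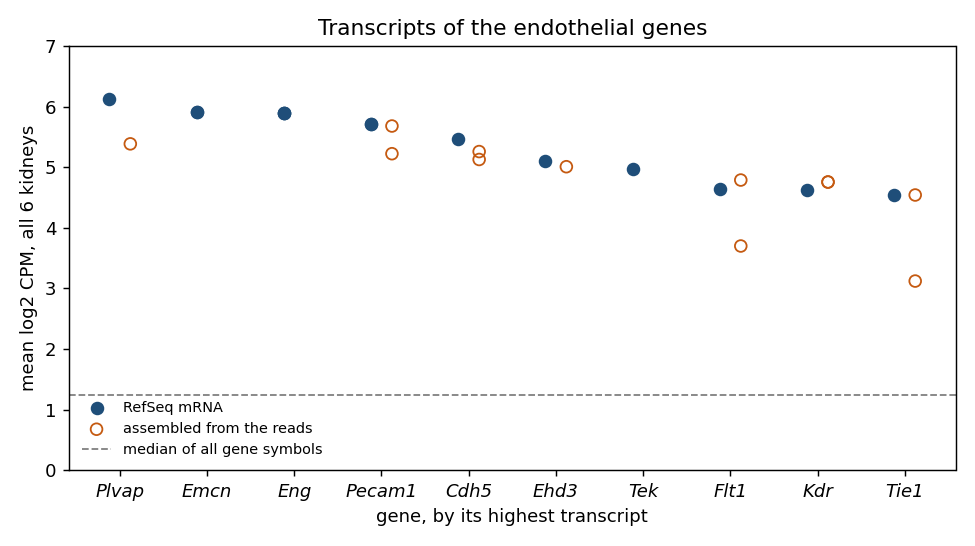
Mean log2 CPM over all 6 kidneys (vertical axis) of each of the 26 transcripts of the 10 endothelial genes (horizontal axis, ordered by the highest transcript), filled for RefSeq mRNAs and open for transcripts assembled from the reads; the dashed line is the median of all gene symbols. All transcripts lie above the dashed line, and those of *Flt1* and *Tie1* are spread most widely.

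CPM grows with transcript length, so genes were compared with each other as CPM per kilobase (kb) of the RefSeq transcript, a length that was known for 22662 symbols (97.4%). On this scale the members ran from 3.62 for *Flt1* to 35.2 for *Plvap*, a 9.71-fold range. Their median was 10.2 CPM per kb against 0.919 over all symbols with a length, those under 1 CPM included. A median per kb over symbols of at least 1 CPM was not computed. Per kb, 6818 symbols were higher than *Flt1* and 6243 higher than *Kdr*. The percentiles ran from 69.9 to 96.7 with a median of 87.6. The lowest and the median were below those in the ranking by CPM, and the highest was above. The members' transcripts, with a median of 3827 nucleotides, were longer than the 2312 of all genes.

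**Figure D2:**
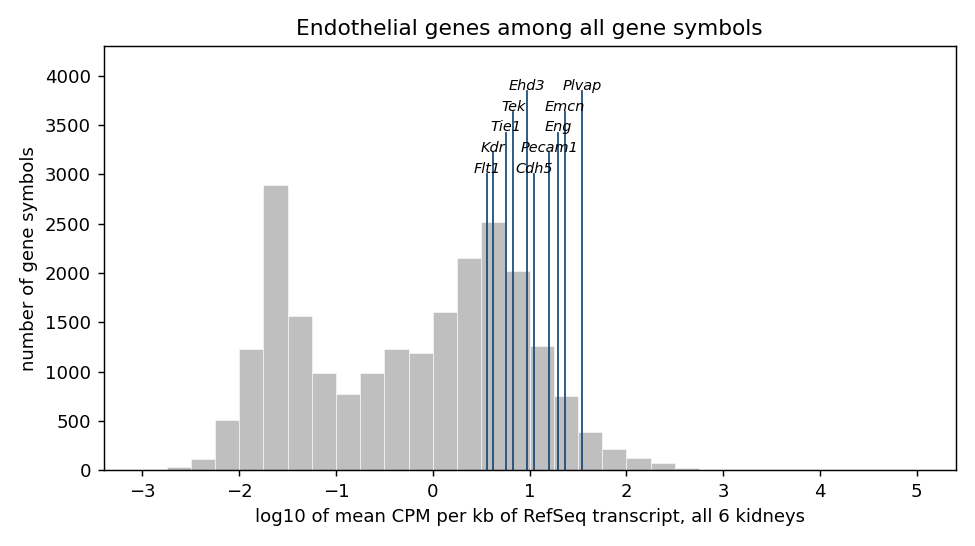
Number of gene symbols (vertical axis) by log10 of the mean CPM per kb over all 6 kidneys (horizontal axis, grey bars), with a labelled line at the level of each endothelial gene; line heights only separate the labels. The 10 lines fall in the upper part of the distribution, from *Flt1* at 3.62 to *Plvap* at 35.2 CPM per kb.

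The members that were grouped here as fenestrated or glomerular endothelial genes held both ends of the order, a pattern that rests on this grouping. *Plvap* and *Emcn* led it, *Ehd3* stood at rank 6, and *Kdr* and *Flt1* stood at ranks 9 and 10. *Plvap*, which encodes the protein of the diaphragms that span fenestrae and caveolae, stood first at 35.2 CPM per kb, and only 739 symbols were higher. It lies on the reverse strand of chromosome 8 of mm10, from 71497765 to 71511752, and its RefSeq mRNA NM_032398 has 6 exons and 1987 nucleotides. A transcript assembled at *Plvap* had 41.8 CPM, below the 69.9 CPM of the RefSeq transcript.

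*Emcn*, which encodes the sialomucin endomucin of capillary and venous endothelium, followed at 23.3 CPM per kb. The gene lies on the forward strand of chromosome 3, from 137341067 to 137432185. Its transcripts NM_001163522 and NM_016885 had 60.2 CPM each, but the first is 2588 nucleotides long and the second 1357. Taken over the shorter transcript, *Emcn* would have 44.4 CPM per kb and stand above *Plvap*, so the order of these genes rests on the length that is chosen. These lengths are those of GENCODE transcripts, and whether the reads were counted over the same lengths was not checked. The CPM were almost equal although the lengths differ, so the level per kb of *Emcn* is uncertain.

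*Ehd3* encodes an EH-domain protein of membrane traffic that is used as a marker of glomerular endothelium. Its level was 9.41 CPM per kb, and the ratio of *Plvap* to *Ehd3* was 3.74 per kb of transcript and 2.48 per kb of coding sequence. It lies on the forward strand of chromosome 17 (73804134 to 73832094). The RefSeq mRNA had 34.4 CPM and the assembled transcript 32.2 CPM.

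The junction genes held the middle of the order. *Pecam1*, the gene of CD31, lies on the reverse strand of chromosome 11 (106654217 to 106750628). Its 2 RefSeq transcripts had 52.7 and 52.6 CPM, and its assembled transcripts had 51.2 and 37.3 CPM. At 16.1 CPM per kb it was 1.45 times *Cdh5*, the gene of VE-cadherin. *Cdh5* lies on the forward strand of chromosome 8, from 104101625 to 104144511, and had 44.2 CPM for the RefSeq mRNA and 38.2 and 34.9 CPM for the assembled transcripts. Its level was 11.1 CPM per kb.

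*Eng* encodes endoglin, a co-receptor that presents BMP9 and BMP10 to the receptor ALK1. It was at rank 3 among the members at 19.8 CPM per kb. Its 3 RefSeq transcripts had 59.8, 59.7 and 59.7 CPM, and the last 2, NM_001146348 and NM_007932, had an identical value. Such transcripts shared the reads counted for them and cannot be told apart here. The gene lies on the forward strand of chromosome 2, from 32646595 to 32682669.

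The receptor tyrosine kinases were the lowest members per kb. *Tek*, the gene of the angiopoietin receptor TIE2, had a single transcript with 31.4 CPM, or 6.75 CPM per kb. *Tie1*, the gene of its partner receptor, had 5.68 CPM per kb, and *Tek* was 1.19 times *Tie1*. Both lie on chromosome 4, *Tek* on the forward strand from 94739289 to 94874976 and *Tie1* on the reverse strand from 118471191 to 118490061. The transcripts of *Tie1* had 23.3 CPM (RefSeq), 23.3 CPM and 8.70 CPM (both assembled).

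*Kdr*, the gene of the main signalling receptor for VEGF-A, and *Flt1*, the gene of a receptor that binds VEGF-A tightly with weaker kinase activity, lie on the reverse strand of chromosome 5. *Kdr* runs from 75932827 to 75978458 and *Flt1* from 147561604 to 147726011, and the RefSeq mRNA of each has 30 exons. For *Kdr* the assembled transcripts, with 27.0 and 27.0 CPM, were above the 24.6 CPM of the RefSeq mRNA. For *Flt1* one assembled transcript had 27.6 CPM and the other 13.0 CPM, around the RefSeq mRNA at 25.0 CPM. The highest transcript of *Flt1* was thus 2.13 times its lowest, and only *Tie1*, at 2.68 times, had a wider spread among the members. *Kdr* stood at 4.15 and *Flt1* at 3.62 CPM per kb, a ratio of 1.15 that became 0.975 per kb of coding sequence.

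Neighbouring members in this order differed by 1.15 to 1.51 times. Since the table gives no value for a single kidney, none of these neighbours can be said to differ beyond the spread between mice. When coding length was used, 4 of the 10 members kept their place. *Emcn*, of whose transcript the 3'-UTR takes 62.9%, then came first with 76.6 CPM per coding kb and *Plvap* after it with 53.1.

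Of the members, 7 had a promoter window (250 bases before to 50 after the start) in RefSeq's set for GRCm38.p6, and *Pecam1*, *Cdh5* and *Plvap* had none. Factors of the ETS family, which bind a GGAA core, are general regulators of endothelial genes, so 2 words with this core, CAGGAA and CCGGAA, were sought on both strands. They do not overlap each other in these windows. Of the windows of the 7 members, 6 held at least one of them, against 41.4% of all 32851 windows. Those of *Ehd3* (chr17:73804591-73804890) and *Tie1* (chr4:118489800-118490099), both among the 6, are set on starts well inside the gene spans given above. CAGGAA was present in 5 of the 7 and in 30.6% of all windows, and CCGGAA in 1 of the 7, *Kdr*, and in 14.9% of all windows. Forkhead-type AAACAA was found in 2 windows (20.7% of all), SOX-type ACAAAG in 2 (18.7% of all), and GATA-type AGATAA in 1, that of *Tek* (11.2% of all). TATAAA was found in 1 window, that of *Flt1* (13.6% of all), starting 31 bases before the start. The windows had a median of 60.7% G and C against 52.7% over all windows. The windows of *Tek* and *Emcn* are printed because each held 2 matches to the ETS-type words, which are in capitals. In *Tek* (chr4:94739039-94739338, forward strand) the matches begin 89 and 59 bases before the start, and in *Emcn* (chr3:137340828-137341127, forward strand) 173 and 67 bases before it. A match is a description of letters and not of binding.
Tek: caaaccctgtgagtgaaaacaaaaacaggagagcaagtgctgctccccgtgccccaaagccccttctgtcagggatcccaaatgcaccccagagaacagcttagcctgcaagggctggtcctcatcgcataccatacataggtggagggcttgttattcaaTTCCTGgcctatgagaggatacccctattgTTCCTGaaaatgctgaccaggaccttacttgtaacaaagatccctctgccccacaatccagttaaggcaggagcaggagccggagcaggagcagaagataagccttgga
Emcn: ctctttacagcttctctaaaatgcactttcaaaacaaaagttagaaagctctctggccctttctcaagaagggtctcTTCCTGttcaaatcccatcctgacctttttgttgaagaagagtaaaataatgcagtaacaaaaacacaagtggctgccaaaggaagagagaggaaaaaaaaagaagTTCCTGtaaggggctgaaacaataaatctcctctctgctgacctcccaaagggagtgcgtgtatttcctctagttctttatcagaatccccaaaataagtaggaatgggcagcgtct

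The ligands and partners of the receptors were then placed beside them. *Vegfa*, the ligand of both *Kdr* and *Flt1* products and a gene of podocytes and tubules, was the highest of the VEGF genes at 43.7 CPM per kb, 10.5 times *Kdr* and 12.05 times *Flt1*. *Vegfb* had 10.9, *Figf* (VEGF-D) 4.02, *Vegfc* 0.689 and *Pgf* 0.338 CPM per kb. Of the other receptors, *Flt4*, which is mainly lymphatic, had 1.401 CPM per kb, below both *Kdr* and *Flt1*. The co-receptor genes *Nrp1* and *Nrp2*, which are not restricted to endothelium, had 17.3 and 3.35 CPM per kb. Of the 10 VEGF pathway genes in the table, 9 reached 1 CPM, as did 13001 of all 23276 gene symbols.

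Among the angiopoietin genes, *Angpt2*, whose product often opposes TIE2 activation, had 6.88 CPM per kb. *Angpt1*, the gene of the activating ligand, had 3.46, so that *Angpt1* stood at 0.503 of *Angpt2*. *Angpt4* was the lowest gene of this list at 0.105 CPM per kb. *Ptprb*, which encodes the endothelial phosphatase of TIE2, had 5.43 CPM per kb, near *Tie1* at 5.68.

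For endoglin, the ligand genes *Gdf2* (BMP9) and *Bmp10* were at 0.0278 and 0.0308 CPM, close to the lowest mean of the table, 0.0263 CPM. This lowest mean was shared by 4617 transcripts, and between such transcripts a level per kb differs by length alone. These ligands are known to reach vessels through the blood from liver and heart. *Acvrl1*, the gene of ALK1, had 2.55 CPM per kb, and *Eng* was 7.76 times as high per kb of transcript and 5.05 times per kb of coding sequence. The type II receptor genes *Bmpr2*, *Acvr2a* and *Acvr2b* had 1.39, 4.002 and 0.492 CPM per kb. The RefSeq transcript of *Bmpr2* had 17.9 CPM while an assembled one had 66.3 CPM, so its level per kb is uncertain. Of the genes that BMP signals induce in many cell types, *Id1*, *Id2* and *Id3* had 12.9, 45.6 and 13.2 CPM per kb and the inhibitors *Smad6* and *Smad7* had 1.46 and 2.30.

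**Figure D3:**
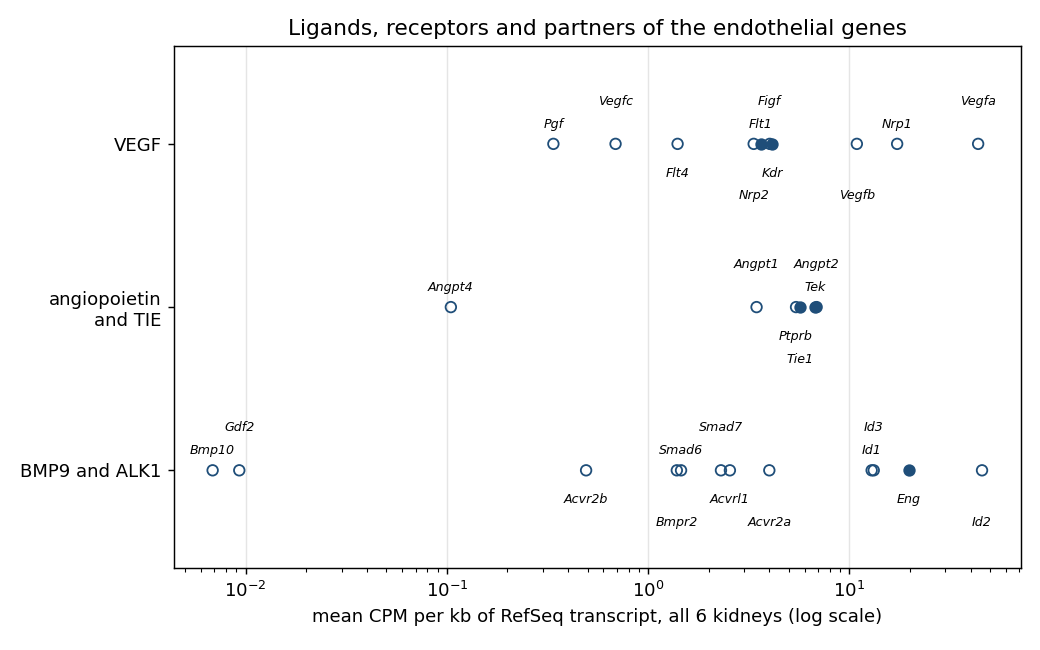
Mean CPM per kb over all 6 kidneys (horizontal log axis) of the genes of 3 pathways, one pathway to a row, filled for the endothelial genes described here and open for their ligands, partners and targets. *Vegfa* lies to the right of *Kdr* and *Flt1*. *Gdf2* and *Bmp10*, whose mean CPM were close to the lowest of any transcript, lie far to the left of *Eng*.

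Of all 23276 gene symbols, 13001 reached 1 CPM. Of 17 genes listed for Notch signalling and arterial or venous identity, 14 reached 1 CPM, with a median of 1.74 CPM per kb. They ran from *Darc*, a marker of venules, at 0.0659 to *Nr2f2*, a venous regulator also used by stromal cells, at 18.0. Of 20 transcription factors known from endothelial cells, 17 reached 1 CPM, with a median of 3.02 CPM per kb. The lowest was *Etv2*, which acts in the embryo, at 0.0265, and the highest was *Ets2* at 8.89. *Etv2* had 0.0278 CPM, close to the lowest mean of any transcript, 0.0263 CPM.

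The label of the genes was set against other markers. Another 16 general endothelial markers all reached 1 CPM, as did 13001 of all 23276 gene symbols. These markers ran from *Vwf*, a gene of larger vessels, at 0.460 to *Cd34*, also a gene of blood progenitors, at 19.1 CPM per kb. Their median was 4.30. Of 3 further genes of fenestrated or glomerular endothelium, *Plat* had 17.3, *Gpihbp1* 8.85 and *Gata5* 0.154 CPM per kb. Endothelial genes other than the 10 were thus measured in these kidneys, with *Gata5* under 1 CPM. Platelets also carry the product of *Pecam1*, and their 4 markers had a median of 0.295 CPM per kb, with *Pf4* highest at 1.88 and *Gp9* lowest at 0.0807. The leukocyte markers, which matter because *Pecam1* is also expressed in leukocytes, ran from 1.39 for *Emr1* to 8.49 for *C1qa* over 4 genes. The share of *Pecam1* RNA that came from such cells was not tested, nor was the share of *Eng* RNA from any cells outside the endothelium.

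Lymphatic markers had a median of 1.03 CPM per kb over 4 genes. The lowest was *Lyve1* at 0.340 and the highest *Pdpn*, which podocytes also express, at 10.9. The RefSeq transcript of *Prox1* used for this median had 5.25 CPM while its highest transcript had 13.2 CPM, so the median is uncertain. The mural cells that wrap vessels had a median of 2.04 over 8 genes, from *Cspg4* at 1.36 to *Acta2* at 41.1. Among these, *Rgs5* had 27.7 CPM in the RefSeq transcript used and 121.1 CPM in its highest one, so its level per kb is uncertain. Podocyte markers had a median of 5.006 over 6 genes, from *Nphs1* at 2.22 to *Podxl*, which endothelial cells also express, at 24.3.

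Tubule markers were higher. Those of the proximal tubule ran from 11.4 for *Cubn* to 423.1 CPM per kb for *Slc34a1*, and those of the thick ascending limb were 132.5 for *Slc12a1* and 374.4 for *Umod*. *Slc12a3* of the distal convoluted tubule had 43.0, and the collecting duct list ran from *Slc4a1* at 5.08 to *Aqp2* at 52.2. The median of the 10 endothelial genes, 10.2 CPM per kb, lay above that of the podocyte list and below those of all the tubule lists. The other 16 general endothelial markers, with a median of 4.30 CPM per kb, lay below the podocyte list. With the members included, the 21 general endothelial markers had a median of 5.68, above the podocyte list. The 3 further genes of fenestrated or glomerular endothelium had a median of 8.85, also above it. The place relative to the podocyte list thus depends on which endothelial genes are taken.

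**Figure D4:**
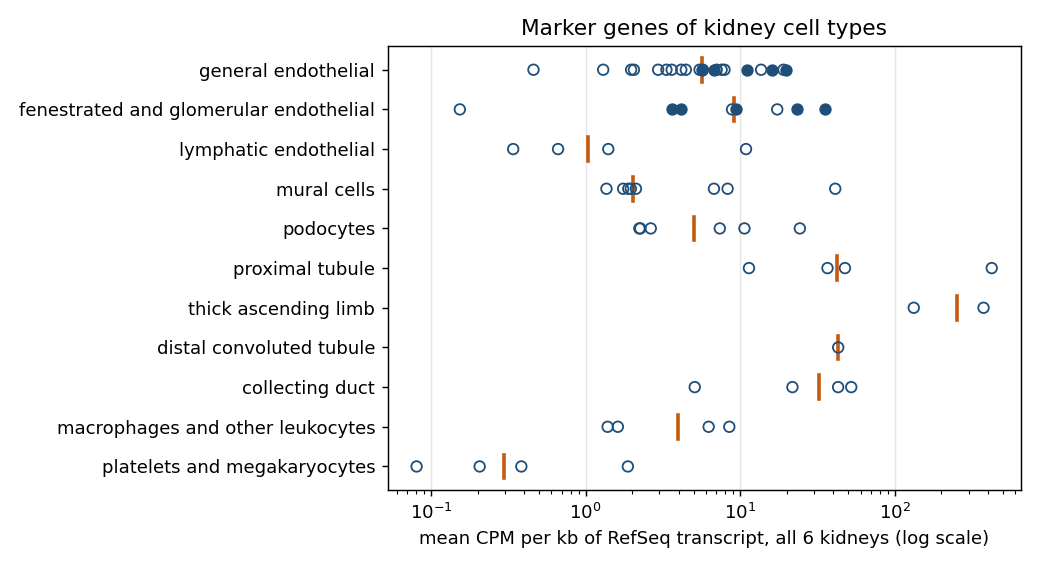
Mean CPM per kb over all 6 kidneys (horizontal log axis) of marker genes of kidney cell types, one list to a row, filled for the 10 endothelial genes and open for other genes; the orange bar is the median of each list. The medians of the tubule lists lie to the right of those of the endothelial lists, although single genes overlap, and the median of the platelet markers lies farthest to the left.

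The targeted genes were read only as means over both genotypes, which cannot check the labels of single kidneys. *Mir17hg*, the host transcript of the cluster, had 4.21 CPM and *Pkd1* 31.8 CPM. *Cdh16*, the gene of Ksp-cadherin whose promoter drives the Cre, had 480.4 CPM in its highest transcript.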

How the data were processed

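RNA of 6 kidneys, 3 of each genotype, was sequenced as 51 bp single-end strand-specific reads. After trimming, alignment to mm10 was done by the authors with TopHat (TopHat2 2.0.12 in the submitters' notes) and the iGenomes annotation, and alignments of mapping quality below 10 were removed. The submitters' notes also name Cufflinks, featureCounts of Subread 1.4.6 and edgeR 3.2.4. The deposited log2 values are edgeR's mean log2 CPM of each transcript over the 6 libraries. The 4 other numeric columns hold the authors' comparison of DKO with SKO kidneys (a fold change, a test statistic and a p-value with its adjusted form) and were not used.

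The mean log2 CPM was converted to CPM here. A gene was represented by its highest transcript, or, for CPM per kb, by its highest RefSeq transcript with a length in GENCODE M21 (GRCm38, the assembly of mm10). The CPM of all transcripts sum to 1007270, a total set by the scaling. Reads shared by overlapping transcripts count more than once within the library size, but this total does not measure how often. Depth per sample is unknown, no count was available, and from the means alone no interval, SD or test could be given. Members and lists were chosen with earlier results of these data known. The rule named all members and the highest and lowest gene of each list. The other genes of the VEGF, angiopoietin and BMP9 lists, *Gpihbp1* and the genes of the deletion were named, and the seed search was added, after values were seen. Where a list gave an older and a newer symbol for a gene, the one in the table was used. Counting functions were tested on simulated data. Python 3.11.15, numpy 2.4.6, pandas 2.3.3 and matplotlib 3.10.9 were used.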

Additional observations from a re-analysis of the deposited data

How the results depend on the processing

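The median level of the 10 endothelial genes, 39.3 CPM, was 95.1 CPM when the transcripts of each gene were summed, which counts shared reads repeatedly, and 33.6 CPM with the lowest transcript of each gene. With RefSeq mRNAs alone it was 39.3 CPM. The median percentile of the members, 90.1, was 82.3 among genes of at least 1 CPM and 90.3 with summed transcripts. The median level per kb, 10.2, was 20.1 per kb of coding length. Of the 10 places in the order per kb, 4 were kept with coding length and 3 with summed transcripts over the longest one. Among single members, the level rounded to 3 significant digits was another in 9 genes with summed transcripts, in 8 with the lowest transcript and in 2 with RefSeq mRNAs alone. No paired analysis was possible because no value for a single kidney was at hand. For the same reason leaving out each replicate, DESeq2, other size factors and a filter on counts were not run. Depth of single libraries and the spread of any level between mice are unknown, and the difference between genotypes was not analysed here.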
